A study of Mus musculus with 18 samples.

Results

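Nr3c1, Nr3c2, Hsd11b1, Hsd11b2, Nr5a2 and Cyp11a1 encode the receptors for corticosteroids in the jejunum and the enzymes and transcription factor that set how much active steroid is made or kept there. These 6 genes were listed by name and matched by symbol to the Ensembl identifiers of the count table, which held 54532 genes. The samples were whole jejunum of C57BL/6 mice, an inbred strain, aged 8 to 12 weeks, with no mutation, transgene or drug named in the labels. The FLASH group (7 libraries) had received 15 Gy to the whole abdomen in 1 fraction at an ultra-high dose rate, the CONV group (5 libraries) the same dose at a conventional rate, and the control group (6 libraries) no radiation, with irradiated tissue taken 16 h after exposure. Whole jejunum holds epithelium, lamina propria, vessels and muscle together, so a gene's level here is an average over all of these cells, and fewer cells of a type cannot be told apart from less RNA per cell. Nothing in the labels states 1 mouse per library, and all p-values therefore refer to the variation between libraries, which may be technical.

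Glucocorticoids, corticosterone in mice, act through the glucocorticoid receptor (Nr3c1), a transcription factor that is held in the cytoplasm by chaperones until it binds hormone. The mineralocorticoid receptor (Nr3c2) binds aldosterone and also glucocorticoids. The 11beta-hydroxysteroid dehydrogenases set the supply inside the cell: type 1 (Hsd11b1) turns inert 11-dehydrocorticosterone back into corticosterone, and type 2 (Hsd11b2) does the reverse and so shields the mineralocorticoid receptor in aldosterone-responsive epithelium. The mouse intestine can also make glucocorticoids of its own. The nuclear receptor LRH-1 (Nr5a2), expressed in crypt epithelium, is known to drive this synthesis, which starts with side-chain cleavage of cholesterol by the mitochondrial enzyme Cyp11a1.

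Promoter sequence from RefSeq (build GRCm38.p6, the sequence of mm10) was available for 4 of the 6 genes, as windows from 250 bases before to 50 after an annotated start. It is shown for the gene that rose (Hsd11b1), for the regulator of intestinal steroid synthesis (Nr5a2) and for its target at the first step of that synthesis (Cyp11a1). Each line is 5′ to 3′ on the strand of the gene. Capitals mark a CCAAT box in Hsd11b1 (chr1:193242361-193242610, minus strand), AGAACA, 1 arm of the glucocorticoid response element, in Nr5a2 (chr1:136960449-136960698, minus strand), and the core TCAAGG of the Nr5a2 site in Cyp11a1 (chr9:58014852-58014971, plus strand), where it lies on the other strand and reads CCTTGA.
Hsd11b1: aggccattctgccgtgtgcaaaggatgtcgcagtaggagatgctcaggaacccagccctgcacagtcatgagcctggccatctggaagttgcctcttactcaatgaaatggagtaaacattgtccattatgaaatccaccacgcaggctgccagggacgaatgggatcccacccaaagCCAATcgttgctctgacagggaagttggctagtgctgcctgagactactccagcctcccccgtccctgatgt
Nr5a2: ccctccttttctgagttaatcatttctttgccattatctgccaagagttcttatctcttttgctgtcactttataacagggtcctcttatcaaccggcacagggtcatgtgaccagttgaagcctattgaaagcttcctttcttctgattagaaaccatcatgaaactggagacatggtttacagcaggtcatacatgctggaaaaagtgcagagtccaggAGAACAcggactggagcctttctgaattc
Cyp11a1: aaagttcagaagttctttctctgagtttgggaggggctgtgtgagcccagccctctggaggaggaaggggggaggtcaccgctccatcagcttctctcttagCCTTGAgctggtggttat
The windows were searched on both strands for the Nr5a2 site CAAGGNCA, for the core TCAAGG that overlaps it, for the full glucocorticoid response element (the inverted repeat bound by a receptor dimer), for 1 arm of that element, AGAACA, and for the CCAAT box, with N for any base. The last was added after the windows had been read. Positions are counted from 0 at the first base of the annotated start. Nr5a2 and Cyp11a1 had 2 windows each, of which 1 is shown. The windows shown for Hsd11b1 and Cyp11a1 lie inside the annotated spans of these genes (chr1:193221634-193264075 and chr9:58006411-58027023). They therefore belong to internal annotated starts, not to the 5′ end of the span. The Cyp11a1 window not shown (chr9:57997774-57998073) lies upstream of its span. The AGAACA of Nr5a2 lay at -29 to -24 in the window shown and at -188 to -183 in the other. The CCAAT box of Hsd11b1 lay at -72 to -68, and the core in Cyp11a1 at 2 to 7, just downstream of the annotated start of that window. CCAAT was not particular to Hsd11b1, and a window of each of the 4 genes held it. It lay at -241 to -237, -188 to -184 and -12 to -8 in Nr3c2, whose window is not shown. In the windows not shown of Nr5a2 and Cyp11a1 it lay at -92 to -88 and -24 to -20. AGAACA occurs in 19.0% of 32851 such windows in the mouse, TCAAGG in 14.4% and CCAAT in 37.4%, so each of these is a common word. The full element occurs in 0.475% of windows and CAAGGNCA in 6.71%, and neither was in a window of the 4 genes. A match of letters is not evidence of binding.

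Depth was 23.1 to 30.2 M estimated counts in FLASH, 19.9 to 27.0 M in CONV and 24.3 to 27.8 M in control libraries. Levels are given as CPM (each estimated count divided by the TMM-scaled size of its library and taken per 1 M), and changes as log2 fold changes ± SE from edgeR's quasi-likelihood test with Benjamini-Hochberg adjustment over 16257 genes and a threshold of 0.05. Over all genes tested, 37.7% passed for FLASH against control (16.7% higher, 21.0% lower), 22.2% for CONV against control (10.2% higher, 12.0% lower) and 19.8% for FLASH against CONV (9.88% higher, 9.91% lower). With library totals in place of TMM the splits were 1381 higher and 6550 lower genes for FLASH against control, 909 and 2846 for CONV against control, and 911 and 2816 for FLASH against CONV. Libraries also varied in how expression ran with transcript length, and FLASH 1, CONV 6 and control 6 had the most negative slopes of their groups (-0.34, -0.43 and -0.41 in log2 CPM per doubling of length). Without these 3 libraries, each of the 5 tested genes stayed on the same side of the threshold in every comparison.

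Of the 6 genes, 5 passed the filter on low counts and Cyp11a1 did not. Against control, 3 of the 5 tested genes passed in FLASH (Hsd11b1 higher, Nr3c1 and Hsd11b2 lower) and 4 of the 5 in CONV (Hsd11b1 higher, Nr3c2, Hsd11b2 and Nr5a2 lower). None of the 5 passed between FLASH and CONV. None passed there with DESeq2, limma-voom or limma-trend either, and at an unadjusted p under 0.05 the count was 2 of 5 (Hsd11b1 and Nr5a2, both higher in FLASH). Groups did not overlap for Hsd11b1 in either comparison with control or for Hsd11b2 in CONV. Over all genes, groups did not overlap with FLASH above control for 6.93% and under it for 6.86%, with CONV above control for 5.46% and under it for 4.95%, and with FLASH above CONV for 4.08% and under it for 4.45%.

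Per kilobase of annotated exon, the glucocorticoid receptor transcript was the most abundant of the 6 in all 3 groups, at 15.0 ± 2.04 CPM per kb in FLASH, 17.1 ± 3.08 in CONV and 20.3 ± 2.38 in control libraries (SD, n = 7, 5 and 6). In controls the order then ran Nr5a2 at 5.24 ± 0.96, Nr3c2 at 4.78 ± 0.80, Hsd11b2 at 3.53 ± 1.10 and Hsd11b1 at 1.06 ± 0.27 CPM per kb. The intervals of mean ± SD of Nr5a2 and Nr3c2 overlapped in every group, and those of Nr3c2 and Hsd11b2 overlapped in controls. In FLASH libraries Hsd11b1 averaged 3.06 ± 1.05 CPM per kb, above Hsd11b2 at 1.76 ± 0.72. In CONV libraries the same pair stood at 2.07 ± 0.22 and 1.11 ± 0.39 CPM per kb, so the group means of the 2 enzymes stood in the opposite order to controls in both irradiated groups, with overlapping intervals of mean ± SD in FLASH.

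**Figure D1:**
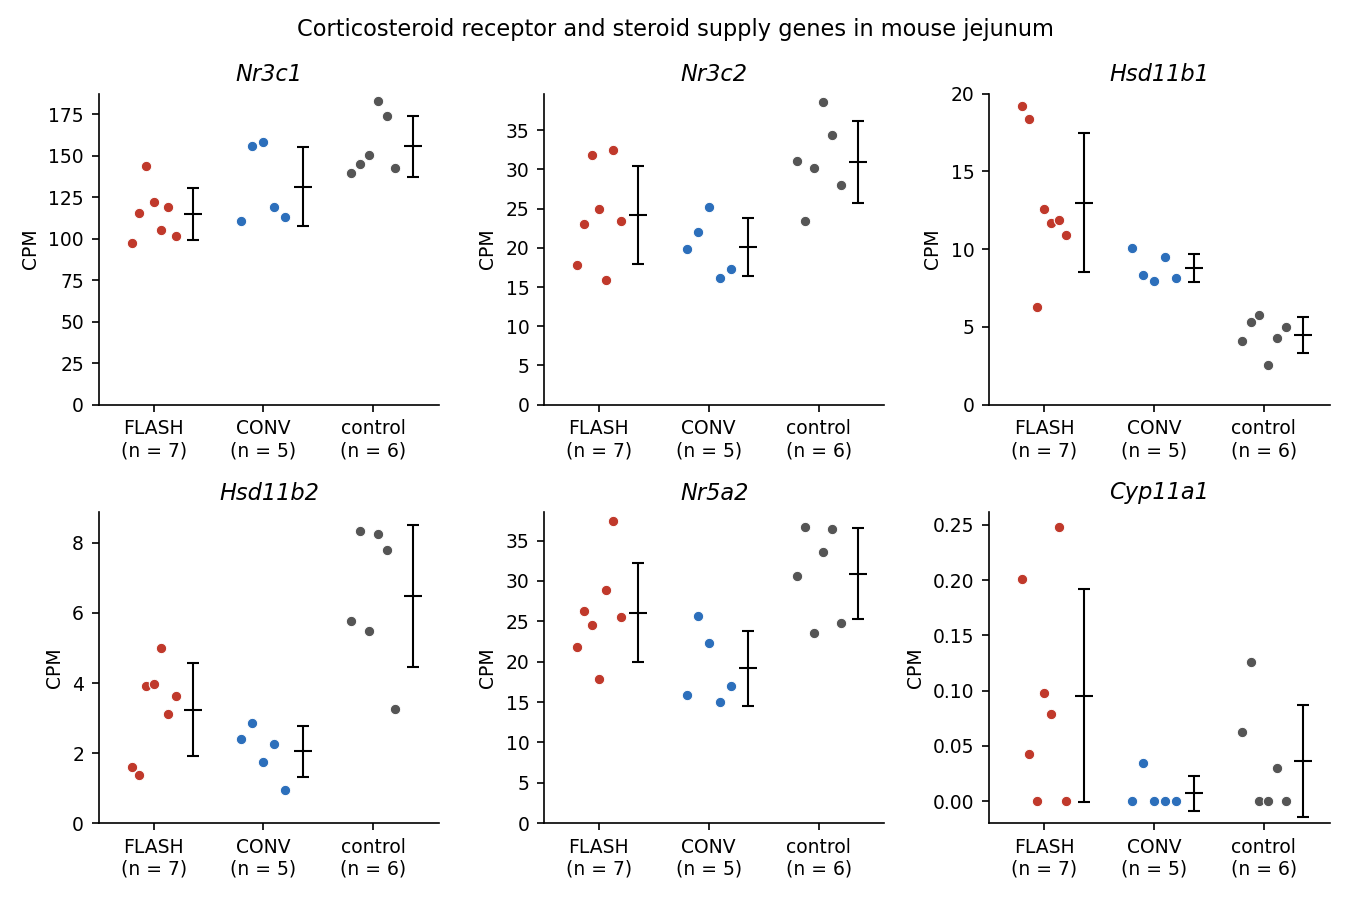
CPM of the 6 genes in each library (points) with the group mean and SD (bars), in FLASH, CONV and control libraries, each panel on its own linear scale. Hsd11b1 lies between 6.30 and 19.2 CPM in FLASH and between 7.93 and 10.1 in CONV, above all control libraries (2.53 to 5.77), and Cyp11a1 does not exceed 0.249 CPM.

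Nr3c1 (Ensembl ENSMUSG00000024431, chr18:39410545-39519421 on the minus strand of mm10) was lower after FLASH. It had a lowest, median and highest value of 97.6, 115 and 144 CPM in FLASH libraries and of 139, 148 and 183 CPM in controls, and the 5 CONV libraries had 111, 156, 158, 119 and 113 CPM. FLASH and control libraries overlapped through FLASH 4 alone, while CONV 3 and CONV 5 lay inside the control range and the other 3 CONV libraries lay under it. The log2 fold change was -0.44 ± 0.13 for FLASH against control (edgeR adjusted p = 0.0123), -0.25 ± 0.14 for CONV against control (adjusted p = 0.202) and -0.19 for FLASH against CONV (95% interval -0.48 to 0.09, adjusted p = 0.335). The FLASH call was lost with an offset per library for gene length and GC content (-0.26, adjusted p = 0.0964), under which the CONV value turned to 0.05, and with no filter but 1 count (-0.41, adjusted p = 0.0767).

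Nr3c2 (ENSMUSG00000031618, chr8:76899442-77245012, plus strand) was lower after CONV. The 5 CONV libraries had 19.8, 22.0, 25.2, 16.2 and 17.3 CPM. FLASH libraries had a lowest, median and highest value of 15.9, 23.4 and 32.4 CPM, and control libraries of 23.4, 30.6 and 38.5 CPM. Of the CONV libraries, only CONV 5 reached the control range, and FLASH spread across both other groups. The log2 fold change was -0.35 ± 0.17 for FLASH against control (edgeR adjusted p = 0.115), -0.62 ± 0.19 for CONV against control (adjusted p = 0.0279) and 0.27 for FLASH against CONV (95% interval -0.12 to 0.65, adjusted p = 0.328). The CONV call rested on single libraries: it was lost without control 4, control 5, CONV 2, CONV 6 or CONV 7 (adjusted p 0.0579 to 0.0877), with no filter but 1 count (-0.60, adjusted p = 0.0766), and with the length and GC offset, which brought the value to -0.25. With library totals, where the median of all genes moved to -0.44, the FLASH value became -0.71 and passed.

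The balance of the 2 receptors was compared within each library, which removes the library's own scaling. The log2 ratio of Nr3c2 to Nr3c1 CPM averaged -2.28 ± 0.27 in FLASH, -2.70 ± 0.16 in CONV and -2.34 ± 0.16 in controls (SD, n = 7, 5 and 6). As a ratio this is a median of 0.205 mineralocorticoid to glucocorticoid receptor reads in FLASH, 0.154 in CONV and 0.199 in controls, not divided by gene length. The trend with transcript length, which varied between libraries, was not removed. Neither this ratio nor that of the 2 enzymes below was repeated with the length and GC offset. The difference was 0.06 between FLASH and control (two-sided exact permutation p = 0.640, adjusted over 6 ratio comparisons 0.768), -0.36 between CONV and control (exact p = 0.00649, adjusted 0.0130) and 0.43 between FLASH and CONV (exact p = 0.0126, adjusted 0.0189). The ratio was thus lower in CONV than in either other group, with single libraries of each (FLASH 6 and control 2) inside the CONV range. Without CONV 3 or CONV 6 the FLASH against CONV difference was 0.40 or 0.38, with an adjusted p of 0.05 that no longer passed.

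Hsd11b1 (ENSMUSG00000016194, chr1:193221634-193264075, minus strand), the enzyme that regenerates corticosterone, rose in both irradiated groups. FLASH 1 and FLASH 2 had 19.2 and 18.4 CPM, FLASH 5, 6, 7 and 9 had 12.6, 11.7, 11.9 and 10.9 CPM, and FLASH 4 had 6.30 CPM. The CONV libraries had 10.1, 8.37, 7.93, 9.48 and 8.16 CPM, and the controls 4.10, 5.29, 5.77, 2.53, 4.31 and 5.0 CPM. Every irradiated library was above every control library, and 6 of the 7 FLASH libraries were above every CONV library, with FLASH 4 below them all. The change was 2.88-fold in FLASH against control (log2 1.53 ± 0.23, edgeR adjusted p = 6.6e-05) and 1.95-fold in CONV against control (0.97 ± 0.24, adjusted p = 0.0103). FLASH against CONV was 0.56 (95% interval 0.06 to 1.06, adjusted p = 0.102), which did not pass. It passed without FLASH 4 (0.72, adjusted p = 0.0196) and with the length and GC offset (0.77, adjusted p = 0.0126).

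Hsd11b2 (ENSMUSG00000031891, chr8:105518755-105523988, plus strand), the enzyme that inactivates corticosterone, fell in both. The FLASH libraries had 1.61, 1.37, 3.92, 3.97, 5.01, 3.12 and 3.64 CPM, the CONV libraries 2.41, 2.86, 1.75, 2.26 and 0.958 CPM, and the controls 5.78, 8.35, 5.48, 8.27, 7.80 and 3.25 CPM. All CONV libraries lay under the controls. FLASH overlapped them through control 6, and FLASH 1 and 2, the highest in Hsd11b1, were the lowest of their group here. The log2 fold change was -1.0 ± 0.31 for FLASH against control (edgeR adjusted p = 0.0161), -1.67 ± 0.35 for CONV against control (adjusted p = 0.00344) and 0.66 for FLASH against CONV (95% interval -0.05 to 1.37, adjusted p = 0.175). These levels rest on 27 to 265 estimated counts per library.

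**Figure D2:**
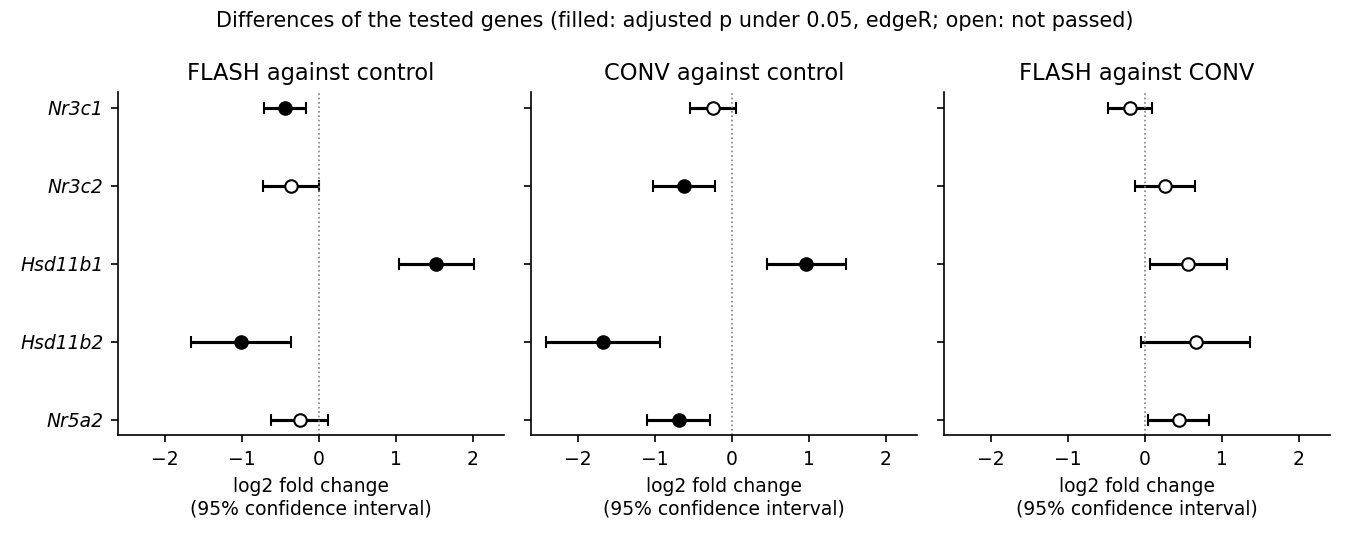
log2 fold changes (points) with 95% confidence intervals for the 5 tested genes, from edgeR, in FLASH against control, CONV against control and FLASH against CONV. Filled points passed an adjusted p of 0.05: 3 in the first comparison, 4 in the second and none in the third, where Hsd11b1 stands at 0.56 and Hsd11b2 at 0.66.

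Within libraries, the log2 ratio of Hsd11b1 to Hsd11b2 CPM averaged 2.03 ± 1.14 in FLASH, 2.14 ± 0.53 in CONV and -0.50 ± 0.79 in controls (SD, n = 7, 5 and 6). As a plain ratio it ran from 1.60 to 12.8 in FLASH, from 2.88 to 7.97 in CONV and from 0.313 to 1.53 in controls, with no overlap of either irradiated group with the controls. The difference was 2.52 between FLASH and control (5.75-fold, two-sided exact permutation p = 0.00117, adjusted 0.00649) and 2.64 between CONV and control (6.23-fold, exact p = 0.00216, the smallest that 462 splits can give, adjusted 0.00649). Between FLASH and CONV it was -0.12 (exact p = 0.838), and it ranged from -0.39 to 0.11 when single libraries were left out. FLASH 1 and FLASH 2, at 11.5 and 12.8, had the highest ratios of all libraries, and FLASH 4 had the lowest of the irradiated ones.

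**Figure D3:**
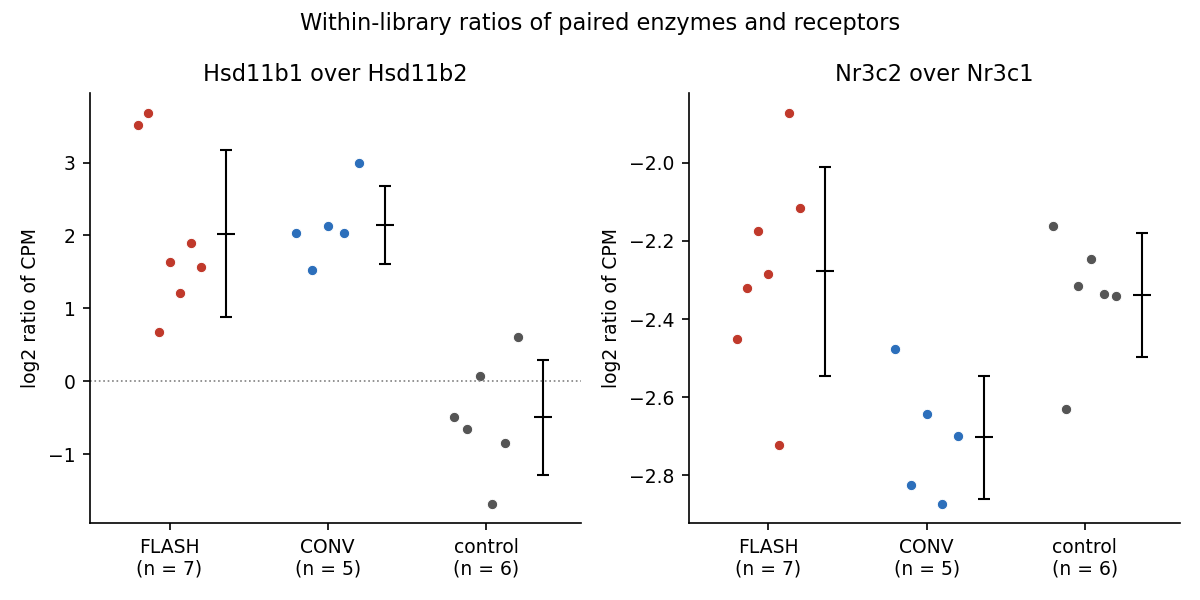
Within-library log2 ratios of CPM (points) with group mean and SD (bars) for Hsd11b1 over Hsd11b2 (left) and Nr3c2 over Nr3c1 (right) in FLASH, CONV and control libraries. On the left, FLASH (mean 2.03) and CONV (2.14) lie above all controls (-0.50). On the right, CONV (-2.70) lies under FLASH (-2.28) and control (-2.34) with overlap at single libraries.

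Nr5a2 (ENSMUSG00000026398, chr1:136842571-136960448, minus strand) was lower after CONV. The 5 CONV libraries had 15.9, 25.7, 22.3, 14.9 and 17.0 CPM. FLASH libraries had a lowest, median and highest value of 17.8, 25.5 and 37.4 CPM, and controls of 23.5, 32.1 and 36.6 CPM. CONV 3 alone reached the control range, and FLASH 7 was above every control library. The log2 fold change was -0.25 ± 0.18 for FLASH against control (edgeR adjusted p = 0.283), -0.69 ± 0.19 for CONV against control (adjusted p = 0.0184) and 0.44 for FLASH against CONV (95% interval 0.05 to 0.83, adjusted p = 0.105). The CONV call was lost without CONV 2 (-0.63, adjusted p = 0.0556) or CONV 6 (-0.61, adjusted p = 0.0627). The difference between the dose rates passed with the length and GC offset (0.42, adjusted p = 0.0394), and the FLASH value passed with library totals (-0.62).

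Cyp11a1 (ENSMUSG00000032323, chr9:58006411-58027023, plus strand), which makes pregnenolone from cholesterol, was at the limit of detection. Summed estimated counts were 17 over the 7 FLASH libraries, 1 over the 5 CONV libraries and 7 over the 6 controls. FLASH 1 held 5 and FLASH 7 held 7 of the FLASH counts, and 5 FLASH, 1 CONV and 3 control libraries had any. The pooled level was 0.100 CPM in FLASH (exact Poisson interval 0.0584 to 0.160), 0.00800 in CONV (0.000203 to 0.0446) and 0.0391 in controls (0.0157 to 0.0806), and these intervals cover counting error only. A count of 0 allows up to 3 counts, or 0.0893 to 0.157 CPM depending on the library. Tested with no filter but 1 count in all, Cyp11a1 did not pass in FLASH against control (edgeR adjusted p = 0.400), CONV against control (0.393) or FLASH against CONV (log2 3.03, adjusted p = 0.149, unadjusted 0.0194).

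Of the 15 genes of the steroid synthesis list, 9 were tested. The enzymes Cyp11b1 (14 summed counts in FLASH, 2 in CONV and 2 in controls), Cyp21a1 (1 in FLASH, 2 in CONV and 0 in controls) and Cyp11b2 (0 in all) were not. The factor Nr5a1 (SF-1, the adrenal relative of Nr5a2, with 25 in FLASH, 9 in CONV and 9 in controls) was not tested either. Cyp11b1 is in the list of adrenal cortex markers and also in that of Nr5a2 targets. Of the 9 tested, 3 rose and 1 fell in FLASH against control (median log2 fold change 0.08, against -0.07 for all genes). In CONV against control 2 rose and none fell (median 0.41, against -0.04). FLASH against CONV gave 1 higher and 2 lower (median 0.38, against -0.02). Over all genes, 37.7% passed for FLASH against control, 22.2% for CONV against control and 19.8% for FLASH against CONV. The calls of the list against control were near these shares. With library totals the balance in FLASH against control turned to 2 higher and 4 lower (median -0.32), CONV against control gave 2 higher and 1 lower, and FLASH against CONV none higher and 2 lower. With no filter but 1 count, 2 of 13 were higher and none lower in FLASH against control. With limma-trend on the authors' log2 values, 5 of 13 were higher and 1 lower there. Star, which carries cholesterol into mitochondria, averaged 0.874 ± 0.32 CPM in FLASH, 0.383 ± 0.19 in CONV and 0.434 ± 0.28 in controls. It passed narrowly in FLASH against control (0.99 ± 0.39, edgeR adjusted p = 0.0492), where the groups overlapped. Hsd3b3, a 3beta-hydroxysteroid dehydrogenase, averaged 20.3 CPM in FLASH, 11.9 in CONV and 4.27 in controls, and rose in both (FLASH against control 2.25 ± 0.40, edgeR adjusted p = 0.000267; CONV against control 1.48 ± 0.41, adjusted p = 0.0164). Its relative Hsd3b2 rose in FLASH (2.35 ± 0.47, adjusted p = 0.000849), and reads may be split between these near-identical genes. Cyp17a1, which opens the route to androgens, fell in FLASH at under 1 CPM (-1.26 ± 0.47, adjusted p = 0.0426). Stard3, a late endosomal cholesterol transporter, was 29.5 CPM in FLASH, 47.3 in CONV and 30.6 in controls, higher in CONV than in either other group. Fdxr, the reductase that feeds electrons to mitochondrial P450 enzymes, was lower in FLASH than in CONV (4.89 CPM in FLASH against 11.6 in CONV, -1.25 ± 0.29, edgeR adjusted p = 0.00709), and Scarb1, the receptor for high density lipoprotein, was higher in FLASH than in CONV (13.4 CPM in FLASH against 7.86 in CONV, adjusted p = 0.0489).

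Among genes that handle glucocorticoids (10 of 12 tested), 8 rose and none fell in FLASH against control (median log2 fold change 1.43), 7 rose and none fell in CONV against control (median 1.07), and 5 were higher and 2 lower in FLASH against CONV (median 0.95). With library totals 1 of the 10 was lower in FLASH against control. H6pd, which supplies NADPH to Hsd11b1 inside the endoplasmic reticulum, averaged 80.9 ± 21.1 CPM in FLASH, 35.3 ± 9.32 in CONV and 28.9 ± 9.25 in controls. It rose in FLASH against control (1.48 ± 0.24, edgeR adjusted p = 9.71e-05) and was higher in FLASH than in CONV (1.20 ± 0.25, adjusted p = 0.00336), while CONV against control was 0.29 ± 0.25 (adjusted p = 0.391). Por, the electron donor of microsomal P450 enzymes, averaged 732 CPM in FLASH, 185 in CONV and 96.4 in controls, with no overlap in any comparison. Srd5a2, a steroid 5alpha-reductase, averaged 15.2 CPM in FLASH, 3.81 in CONV and 0.574 in controls, whereas its relative Srd5a1 was 10.6 in FLASH, 25.2 in CONV and 12.3 in controls and rose in CONV against control (1.03 ± 0.33, edgeR adjusted p = 0.0327). Abcb1b, an efflux pump of the P-glycoprotein pair, averaged 3.38 CPM in FLASH, 7.38 in CONV and 1.73 in controls, and Abcb1a, its partner gene, 227 in FLASH, 98.6 in CONV and 97.8 in controls. The steroid hydroxylase Cyp3a13 averaged 1745 CPM in FLASH, 1065 in CONV and 494 in controls.

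**Figure D4:**
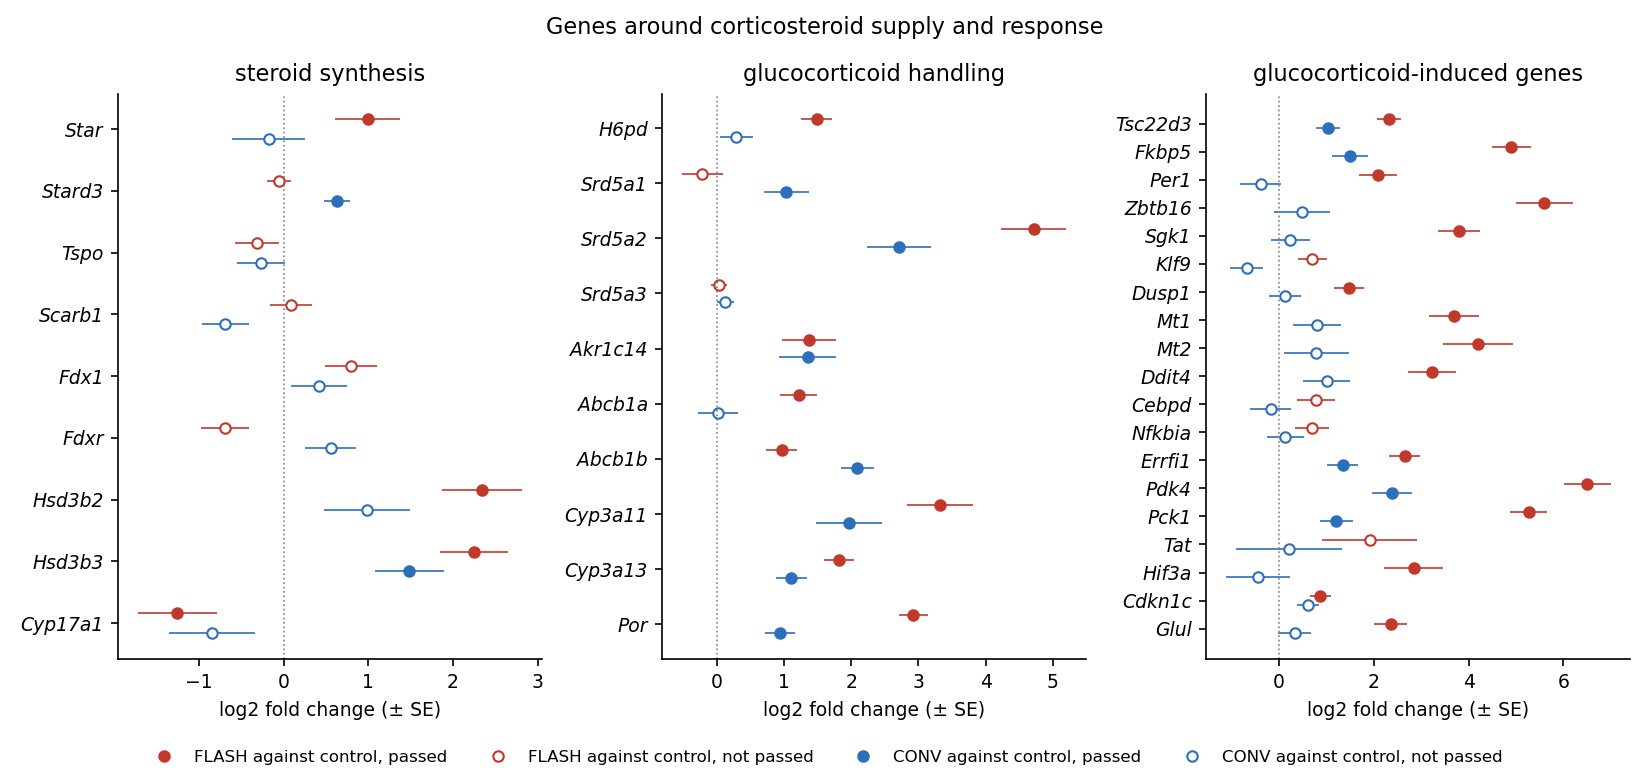
log2 fold changes ± SE (edgeR) of the tested genes of 3 lists, FLASH against control in red above CONV against control in blue, with filled points for an adjusted p under 0.05. H6pd stands at 1.48 in FLASH and 0.29 in CONV, and Fkbp5 at 4.90 in FLASH and 1.50 in CONV.

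Chaperones and coregulators of the receptors were read beside the share of all genes that passed. That share was 37.7% for FLASH against control, 22.2% for CONV against control and 19.8% for FLASH against CONV (9.88% higher, 9.91% lower). Of 17 chaperone genes, 2 rose and 5 fell in FLASH against control (1 and 11 with library totals), and 6 rose and none fell in CONV against control. The chaperones called in FLASH against control were thus near the share of all genes. In FLASH against CONV 1 was higher and 11 lower (median -0.61, or -0.76 with library totals). Fkbp5, which is also in the list of glucocorticoid-induced genes below, was 1 of the 2 that rose and the 1 higher in FLASH against CONV. Fkbp4, the immunophilin that helps move the glucocorticoid receptor to the nucleus, averaged 84.0 ± 27.4 CPM in FLASH, 214 ± 44.3 in CONV and 195 ± 16.9 in controls, lower in FLASH than in both others (-1.22 ± 0.17 against control, edgeR adjusted p = 3.91e-05). The co-chaperones Cdc37 (62.5 CPM in FLASH, 95.9 in CONV, 98.8 in controls) and Ahsa1 (40.4 in FLASH, 82.4 in CONV, 56.2 in controls) were also lower in FLASH than in both others. Hspa8, the constitutive cytosolic heat shock chaperone, averaged 1273 CPM in FLASH, 2668 in CONV and 1124 in controls and rose in CONV (1.25 ± 0.21, adjusted p = 0.000534). Among 15 coregulators 2 rose and 1 fell in FLASH against control (median 0.01, or -0.35 with library totals), 1 fell in CONV against control (Med1, a Mediator subunit, -0.50 ± 0.17, adjusted p = 0.0419), and 4 were higher and 1 lower in FLASH against CONV. These coregulator calls against control made up a smaller share than those over all genes. Ppargc1a, a coactivator of mitochondrial genes, was 79.5 CPM in FLASH, 36.2 in CONV and 41.3 in controls, and Tob2 120 in FLASH, 49.2 in CONV and 56.1 in controls. The counts of coregulators depended on the scaling. With library totals 2 were higher and 4 lower in FLASH against control, none higher and 3 lower in CONV against control, and 2 higher and 2 lower in FLASH against CONV. With the length and GC offset 7 were higher and 1 lower in FLASH against control, 1 higher and none lower in CONV against control, and 7 higher and none lower in FLASH against CONV. Without FLASH 1, CONV 6 and control 6 the lower coregulators in CONV against control numbered 9.

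Genes that glucocorticoids are known to induce were mostly higher after FLASH. The labels state free access to food for the mice. They do not give food intake after irradiation, anaesthesia or the time of day of sampling for any group. All of these bear on such genes, and their part in the differences was not tested. Of 19 tested, 15 rose and none fell in FLASH against control (median log2 fold change 2.65), 5 rose and none fell in CONV against control (median 0.49), and 15 were higher and none lower in FLASH against CONV (median 2.21). Over all genes, 16.7% were higher in FLASH against control, 10.2% in CONV against control and 9.88% in FLASH against CONV. The list was chosen with earlier results of these data known, so its counts are a description and not an independent test. Tsc22d3 (GILZ) averaged 294 ± 80.6 CPM in FLASH, 120 ± 43.0 in CONV and 58.7 ± 13.9 in controls, with no overlap between any pair of groups. Fkbp5, which lowers the receptor's affinity for hormone, averaged 387 ± 141 CPM in FLASH, 36.6 ± 16.8 in CONV and 12.9 ± 6.72 in controls (FLASH against control 4.90 ± 0.41, edgeR adjusted p = 2.22e-07; CONV against control 1.50 ± 0.38, adjusted p = 0.00997). Pdk4, a kinase that restrains pyruvate oxidation, averaged 504 CPM in FLASH, 29.1 in CONV and 5.55 in controls, and Pck1, the gluconeogenic enzyme, 1769 in FLASH, 107 in CONV and 46.0 in controls. Errfi1, a feedback inhibitor of the EGF receptor, averaged 175 CPM in FLASH, 70.9 in CONV and 27.8 in controls.

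Genes of the aldosterone response partly overlapped that list, since Sgk1 and Tsc22d3 are in both. Of 9 tested (of 13), 6 rose and 1 fell in FLASH against control (median 1.25), 3 rose and none fell in CONV against control (median 0.31), and 6 were higher and none lower in FLASH against CONV (median 0.80). With library totals 5 were higher and 1 lower in FLASH against control, 1 higher and 1 lower in CONV against control, and 4 higher and none lower in FLASH against CONV. Sgk1, the kinase that keeps epithelial sodium channels at the surface, averaged 1477 ± 771 CPM in FLASH, 125 ± 31.2 in CONV and 106 ± 43.2 in controls (3.80 ± 0.44 for FLASH against control, edgeR adjusted p = 4.59e-06; 0.24 ± 0.42 for CONV against control, adjusted p = 0.680). Scnn1b and Scnn1g, the beta and gamma subunits of that channel, were not tested, with 1 and 42 summed counts in FLASH, 0 and 12 in CONV, and 3 and 1 in controls. Usp2, a deubiquitinase, averaged 66.9 CPM in FLASH, 35.6 in CONV and 25.3 in controls and rose in both.

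Of the 15 genes listed as targets of Nr5a2, 9 were tested, of which 5 rose and 2 fell in FLASH against control (median 0.93), 2 rose and none fell in CONV against control (median 0.24), and 4 were higher and 2 lower in FLASH against CONV (median 0.60). With library totals, 3 of them were lower in CONV against control. Over all genes, 37.7% passed for FLASH against control, 22.2% for CONV against control and 19.8% for FLASH against CONV, so the targets called in CONV against control were near that share. Nr0b2 (SHP), a receptor without a DNA-binding domain that represses Nr5a2, averaged 10.3 ± 7.01 CPM in FLASH, 8.33 ± 5.41 in CONV and 0.238 ± 0.14 in controls (FLASH against control 5.42 ± 0.63, edgeR adjusted p = 4.78e-06; CONV against control 5.11 ± 0.64, adjusted p = 3.64e-05). Abcg5 and Abcg8, the subunits of the sterol efflux pump, averaged 387 and 500.2 CPM in FLASH, 239 and 205 in CONV and 203 and 194 in controls. Apoa1, the main protein of high density lipoprotein, averaged 22057 CPM in FLASH, 14590 in CONV and 7579 in controls and rose in both. Ccnd1, a G1 cyclin, averaged 38.6 CPM in FLASH, 74.7 in CONV and 117 in controls and fell in FLASH (-1.60 ± 0.24, adjusted p = 6.12e-05). Of 8 absorptive enterocyte markers, 5 rose in FLASH and 4 in CONV against control, and none fell. Their summed level had a median of 55408 CPM in FLASH, 47347 in CONV and 19443 in controls. Apoa4, 1 of the 8, averaged 31785.6 CPM in FLASH, 23636.5 in CONV and 5110 in controls, so the sum leans on it. The part of these cells in the result was not tested.

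Of the other steroid and orphan receptors, Pgr, Esr1 and Esrrg, the progesterone, estrogen alpha and estrogen-related gamma receptors, fell in both irradiated groups. Esr1 averaged 0.570 ± 0.30 CPM in FLASH, 0.617 ± 0.29 in CONV and 1.66 ± 0.34 in controls. Pgr averaged 0.129 ± 0.12 CPM in FLASH and 0.561 ± 0.13 in controls. Its FLASH level was near the limit of detection, since 3 counts in a FLASH library are 0.107 to 0.147 CPM. With the length and GC offset 2 genes of the list were lower in CONV against control. Esrra, estrogen-related receptor alpha, rose in CONV (311 CPM in CONV against 177 in controls, 0.81 ± 0.23, edgeR adjusted p = 0.0189) and was 256 CPM in FLASH (0.53 ± 0.21, adjusted p = 0.0565). None of these 4 receptors differed between FLASH and CONV past the threshold.

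Markers of the cells that could carry these transcripts also differed between groups. Of 8 fibroblast markers, 5 fell in FLASH and 3 in CONV against control, with a summed level of 180 to 323 CPM in FLASH, 107 to 356 in CONV and 273 to 1084 in controls. Of 8 smooth muscle markers, 8 fell in FLASH and 4 in CONV, with sums of 607 to 1452 CPM in FLASH, 285 to 1538 in CONV and 1517 to 4402 in controls. The median sum of fibroblast markers was 202 CPM in FLASH, 244 in CONV and 509.7 in controls. That of smooth muscle markers was 777 CPM in FLASH, 1192 in CONV and 2213 in controls. Of 7 macrophage markers, 1 rose and 2 fell in FLASH and 3 fell in CONV, with sums of 188 to 305 CPM in FLASH, 206 to 230 in CONV and 210 to 405 in controls. Of 8 epithelial markers, 2 rose in FLASH and 1 fell in CONV, with median sums of 12395 CPM in FLASH, 9791 in CONV and 10645 in controls. Crypt base markers, of the compartment in which Nr5a2 is known to be expressed, summed to 74.3 to 136 CPM in FLASH, 62.3 to 159 in CONV and 658 to 1126 in controls, with 5 of 6 lower in FLASH and 3 of 6 lower in CONV. The part of any of these cells in the changes of the 6 genes was not tested. Markers of adjacent organs were also read. Of 8 adrenal cortex markers, Cyp11b2 was at 0 in all groups, and Cyp21a1, Hsd3b1 and Mc2r had at most 11 summed counts in a group. Cyp11b1, also in the list of Nr5a2 targets, and Nr5a1, both given above, had most of their counts in FLASH. The other 2, Star and Akr1b7, were tested and both rose in FLASH against control. Akr1b7, an aldo-keto reductase, averaged 525.6 CPM in FLASH, 185 in CONV and 70.1 in controls, most of a summed list level of 159 to 800 CPM in FLASH, 72.6 to 392.4 in CONV and 22.4 to 195 in controls. Of 8 exocrine pancreas markers, Cpa1 and Pnlip were at 0 throughout, 5 others had at most 18 summed counts in a group, and Cela1 averaged 5.04 CPM in FLASH, 5.67 in CONV and 5.29 in controls. Of 6 adipocyte markers, Cidec, a lipid droplet protein, rose in both (228 CPM in FLASH, 126 in CONV and 49.4 in controls; FLASH against control 2.21 ± 0.27, edgeR adjusted p = 7.41e-06), Plin1 fell in FLASH (0.452 CPM in FLASH against 1.95 in controls), and the defining marker Adipoq averaged 2.02 CPM in FLASH, 3.52 in CONV and 4.10 in controls. The part of these organs in the results was not tested.

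The genes whose log2 CPM followed each of the 5 tested genes most closely across the 18 libraries were read among 10289 protein-coding genes with a mean of at least 5 CPM. These correlations are a description: the libraries share their group differences, depth and transcript length trend. Hsd11b1 was followed most closely by Saa3, an acute-phase serum amyloid (Pearson r = 0.96), S100a11 (0.93) and Atp6v0c (0.92). For Hsd11b2 they were Slc44a1, Syne2 and Scaper (0.88 each), and for Nr5a2 Arfgef3 (0.93), Atp13a3 (0.92) and Slc38a2 (0.92). For Nr3c1 they were Snph (0.89), Galnt4 (0.89) and Ankib1 (0.88), and for Nr3c2 Helb (0.84), Nedd9 (0.83) and Snph (0.82), with 1 of these genes shared by the 2 receptors. With group means subtracted, Nr5a2 kept Atp13a3 (0.91) and Slc38a2 (0.90), Nr3c1 kept Snph (0.88) and Nr3c2 kept Helb (0.78), while none of the 3 nearest genes of Hsd11b1 or Hsd11b2 was the same. Those of Hsd11b1 then were Alg1 (0.89), Usb1 (0.87) and Tmem123 (0.86).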

How the data were processed

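RNA of whole jejunum (250 ng) was sequenced as single-end 100 bp reads after stranded mRNA library preparation, per the labels. Per the submitters' processing notes, STAR, Salmon, edgeR 3.40.2, limma 3.54.2 and the build mm10 were used; other versions are not given in the sources used here. The authors deposited expected counts (estimated counts per gene, not scaled) for 54532 genes and log2 values, normalized by the authors, for 19193. Counts were rounded before use, and 16257 genes passed edgeR's filterByExpr. All 18 libraries entered 1 edgeR 4.0.16 quasi-likelihood fit (R 4.3.3) with TMM factors and Benjamini-Hochberg adjustment. Errors of log2 fold changes are the absolute value over the square root of F. A positive value means higher in the first group named. CPM of all genes use the same effective library sizes. Ratios within libraries used log2 CPM with a prior count of 2 and two-sided exact permutation of the group labels. Exon lengths came from the GENCODE annotation of the same build. Simulated counts, in which 200 genes were changed in FLASH, served to check the fit. It recovered 40% of 2-fold and 82% of 4-fold changes for FLASH against control. For FLASH against CONV it recovered 39% and 78%, so a gene that did not pass may still differ. False calls numbered 8 and 7 in these comparisons, and 0 in CONV against control, where no gene was changed. Symbols were found for 54495 IDs.

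The 6 genes, the gene lists and the tests were chosen with earlier results of these data known. Named were, beside the 6 genes, up to 3 genes with the smallest p per list and comparison among those that passed (or 1 where none did), Tsc22d3, Fkbp5, Sgk1, H6pd, Star, Nr0b2 and Nr5a1, and the 3 genes most like each of the 5 tested. Genes named beyond that rule (Srd5a1, Abcb1a, other low-count steroid enzymes, the channel subunits and the marker genes) were chosen after their values were seen. Values of 2 genes of the lists are not reported here. Alternatives were DESeq2 1.42.0 size factors and test, unscaled library totals, TMM factors computed after dropping the 50 most abundant genes, a filter of 1 count in all or of a mean of 1 CPM, limma-voom (limma 3.58.1), limma-trend on the authors' log2 values, only the groups compared, a replicate block, a length and GC offset (splines with 4 degrees of freedom), and leaving out libraries. Figures were made with Python 3.11.15 and matplotlib 3.10.9.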

Additional observations from a re-analysis of the deposited data

Results flagged for a closer look

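The log2 ratio of Nr3c2 to Nr3c1 differed between the dose rates: it was higher by 0.43 in FLASH than in CONV libraries (-2.28 ± 0.27 in FLASH and -2.70 ± 0.16 in CONV, SD, n = 7 and 5; two-sided exact permutation p = 0.0126, adjusted over 6 ratio comparisons 0.0189). It drew attention because the same contrast against control gave 0.06 in FLASH and -0.36 in CONV, and the difference itself passed its test. It was higher than the CONV median in 6 of 7 FLASH libraries, the exception being FLASH 6. The ratio was not repeated with the length and GC offset. Over the 21 groups of values examined for a single distant library (each of the 5 tested genes or 1 of the 2 ratios in a group of 5, 6 or 7 libraries), 0 libraries stood out, where chance gives about 1 group in 20.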

How the results depend on the processing

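Of 540 repeats of the results under other settings, 492 kept their result and 6 turned round. For a gene or ratio, keeping it means the same direction and side of the threshold. For a count of genes called, also among the repeats, it means a total near the main one. Blocked ratios, which could not pass, are included. Hsd11b1 in FLASH against control passed under every setting run (log2 1.14 to 1.69). With library totals, where the median of all genes was -0.44 for FLASH against control and -0.25 for CONV against control, Nr3c2 (-0.71) and Nr5a2 (-0.62) passed in FLASH against control. With no filter but 1 count, Nr3c2 in CONV against control (-0.60, edgeR adjusted p = 0.0766) and Nr3c1 in FLASH against control (-0.41, adjusted p = 0.0767) no longer passed; 33352 genes were then tested. With the length and GC offset, Nr3c1 in CONV against control turned to 0.048, Nr3c2 in CONV against control (-0.25) and Nr3c1 in FLASH against control (-0.26) were lost, and Hsd11b1 (0.77) and Nr5a2 (0.42) passed in FLASH against CONV. The cause was not tested.

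The labels do not say that replicate numbers pair the libraries. Deviations from the group means correlated at -0.27 to 0.61 between same-numbered libraries, which does not settle whether they are paired. With the replicate block, on the libraries whose number both groups share, Nr3c2 (-0.49), Hsd11b1 (0.81), Hsd11b2 (-1.36) and Nr5a2 (-0.64) in CONV against control and Nr3c1 (-0.43) and Hsd11b2 (-1.18) in FLASH against control did not pass, and 2212, 1476 and 2030 genes were called for FLASH against control, CONV against control and FLASH against CONV. The same libraries without the block (a setting chosen after seeing the data) gave -0.49 for Nr3c2 and -0.63 for Nr5a2 in CONV against control, -0.43 for Nr3c1 and -1.08 for Hsd11b2 in FLASH against control, none past the threshold, and 3860 and 1087 genes for FLASH and CONV against control. The blocked ratios of Hsd11b1 to Hsd11b2 were 2.75 for FLASH and 2.13 for CONV against control; those of Nr3c2 to Nr3c1 were -0.048 for FLASH against control, -0.30 for CONV against control and 0.37 for FLASH against CONV. With 4 or 5 pairs the smallest exact permutation p is 0.125 or 0.0625, so none could pass.

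Leaving out 1 library gave, in CONV against control, -0.71 to -0.55 for Nr3c2 (lost without control 4, control 5, CONV 2, CONV 6 or CONV 7), -0.82 to -0.61 for Nr5a2 (lost without CONV 2 or CONV 6) and 1869 to 6493 genes called, against 3615 with all libraries (2277 without control 2, 2359 without control 5, 6493 without control 6, 2171 without CONV 2 and 1869 without CONV 6). Hsd11b1 in FLASH against CONV ranged from 0.44 to 0.72 and passed without FLASH 4. The ratio of Hsd11b1 to Hsd11b2 in FLASH against CONV ranged from -0.39 to 0.11, above 0 without FLASH 4 (0.11), FLASH 6 (0.02) or CONV 7 (0.10). The ratio of Nr3c2 to Nr3c1 ranged from -0.01 to 0.14 in FLASH against control, under 0 without FLASH 7 (-0.0066), and from 0.36 to 0.50 in FLASH against CONV, lost without CONV 3 (0.40) or CONV 6 (0.38). Cyp11a1, with 17 summed counts in FLASH, 1 in CONV and 7 in controls, was at the limit of the depth.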
